A study of Mus musculus with 48 samples.

Results

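10 transcription factors that shape the identity of innate lymphocytes were followed by symbol, out of 24328 symbols in the deposited read counts: Nfil3, Id2, Ets1, Tox, Tox2, Runx3, Gata3, Rora, Zbtb16 and Hic1. They were chosen by name as factors of the natural killer (NK) and innate lymphoid lineage, with earlier results of these data known. Counts of factors called, set beside the share of all genes, therefore only describe this list. All 10 have a row in each of 48 RNA-seq libraries of NK cells sorted from mouse spleen. The libraries form 14 groups in 3 experiments. In the conditional experiment, cWT animals carried Ncr1Cre and cKO animals carried Ncr1Cre together with Bach2flox/flox, so both genotypes carried the Cre, which acts in cells that have switched on Ncr1; the labels do not give the number of Ncr1Cre alleles per animal, and the genotypes may not be matched in it. Each of these genotypes gave 3 libraries from each of 4 fractions, labelled NK, iNK, mNK1 and mNK2. In the WT subset experiment, WT animals gave 4 libraries each of iNK, mNK1, mNK2 KLRG1- and mNK2 KLRG1+ cells. In the chimera experiment, WT and Bach2-KO NK cells came from hosts rebuilt with WT and Bach2-KO bone marrow in about equal parts and gave 4 libraries per genotype; cells that such hosts may still have of their own are not described. No group was given a treatment, and the labels give no age, sort gate or number of pooled animals. They do not say that replicates are separate animals, so the p-values measure only the spread between libraries.

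NK cells and the helper-like innate lymphoid cells (ILCs) arise from a shared progenitor, and combinations of transcription factors decide which lineage forms. Nfil3 acts early and leads to Id2, which captures E proteins and so blocks the T and B cell fates; Tox and Ets1 act at the same early steps. Runx3, Gata3, Rora and Zbtb16 then mark or direct separate branches: Rora and Gata3 are needed for type 2 ILCs, and Zbtb16 marks a progenitor of helper-like ILCs.

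Library totals ran from 13650636 to 21029172 counts in the conditional experiment. The totals were 8973777 to 11924274 counts for WT subsets and 8557018 to 12927472 counts for chimeras. Levels are given as CPM, the count scaled to the size of its library within each experiment, so that levels are compared within an experiment and never between genes. Bach2, the targeted gene, was at 14.8, 13.1, 18.4 and 15.6 CPM in the 4 WT chimera libraries and at 1.44, 3.11, 2.69 and 1.22 CPM in the 4 KO libraries. In the conditional experiment it was not lower in the libraries labelled cKO, which ran from 15.1 to 30.1 CPM against 9.82 to 18.8 CPM in cWT; a count over the whole gene does not check a deletion of some exons, and the genotype of these libraries rests on the label. Ncr1, whose promoter drives the Cre, also differed between these genotypes: it was at 198 to 826 CPM in the cWT NK libraries and at 1551 to 1578 CPM in cKO NK. In the same order of genotypes it was at 56.1 to 351 and 485 to 576 CPM in iNK, 160 to 788 and 1272 to 1382 CPM in mNK1, and 279 to 1129.8 and 2059 to 2424 CPM in mNK2. The genotypes thus did not overlap in any fraction, and the part of this in the comparisons of cKO with cWT was not tested.

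The markers of NK cells were high in every library, with a summed level of 8986 to 69636 CPM over 10 genes, while markers of type 2 ILCs summed to at most 18.5 CPM and those of type 3 ILCs to at most 22.8 CPM. The 6 markers of type 1 ILCs (ILC1), cells close to NK cells, were not low: they summed to 218 to 302 CPM in WT iNK against 57.9 to 74.5 CPM in WT mNK1, and to 388 to 414 CPM in cWT iNK against 83.3 to 87.3 CPM in cWT mNK1. Between mNK1 and iNK, 6 of 6 were called lower in WT and 5 of 6 in cWT and in cKO. The shares of all genes called lower were 4.14% in WT, 8.29% in cWT and 11.4% in cKO. Cxcr6, a chemokine receptor that T cells also use, was at a mean of 188 CPM in cWT iNK and 6.12 CPM in cWT mNK1. The iNK libraries also held T and B cell markers. The 12 T cell markers summed to 1053 to 1239 CPM in WT iNK against 298 to 306 CPM in WT mNK1, and to 1897 to 2670.2 CPM in cWT iNK against 371 to 382 CPM in cWT mNK1. Cd3e, a chain of the T cell receptor complex, averaged 120 CPM in WT iNK, 453 CPM in cWT iNK and 490 CPM in cKO iNK, against 1.71 CPM in cWT mNK2. The 10 B cell markers summed to 509 to 795 CPM in cWT iNK and 792 to 1433 CPM in cKO iNK. Since T cells also use several of the 10 factors, these values, and those of the ILC1 markers, stand beside every result that involves iNK, and their part in it was not tested. The conditional mNK1, mNK2 and NK libraries held markers of other cells. Lyz2, a lysozyme of myeloid cells, was at 219 to 701 CPM in cWT mNK1 and 402 to 961 CPM in cKO mNK1, against 8.83 to 10.8 CPM in cWT iNK and 8.48 to 13.6 CPM in cKO iNK. The 10 neutrophil markers summed to 71.8 to 272 CPM in cWT mNK1 and 106 to 243 CPM in cKO mNK1, against 16.8 to 29.3 and 19.3 to 42.4 CPM in iNK, and to 8.83 to 139 CPM in WT mNK1 against 0 to 1.16 CPM in WT iNK. Cxcr2 made a large part of the conditional sums, at 63.2 to 82.0 CPM in cWT mNK1, 61.3 to 167 CPM in cKO mNK1 and 15.2 to 19.9 CPM in cWT iNK. In cKO mNK1, Ngp was at 16.6 to 48.4 CPM and S100a8 at 0.357 to 1.85 CPM. Mcpt8, a basophil protease, was at 31.9 to 66.1 CPM in cWT mNK1 and 51.3 to 80.0 CPM in cKO mNK1, against 0 to 0.217 CPM in WT mNK1. It was at 27.2 to 62.3 CPM in cWT NK and 20.1 to 25.9 CPM in cKO NK. Lyz2 was at 160 to 320 CPM in cWT mNK2 and 158 to 181 CPM in cKO mNK2. In the NK fraction Lyz2 was at 64.8 to 113 CPM in cWT and 62.5 to 111 CPM in cKO. The part of these cells in the results for mNK1, mNK2 and NK was not tested. In bulk RNA, fewer cells of a type and less RNA per cell cannot be told apart.

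**Figure D1:**
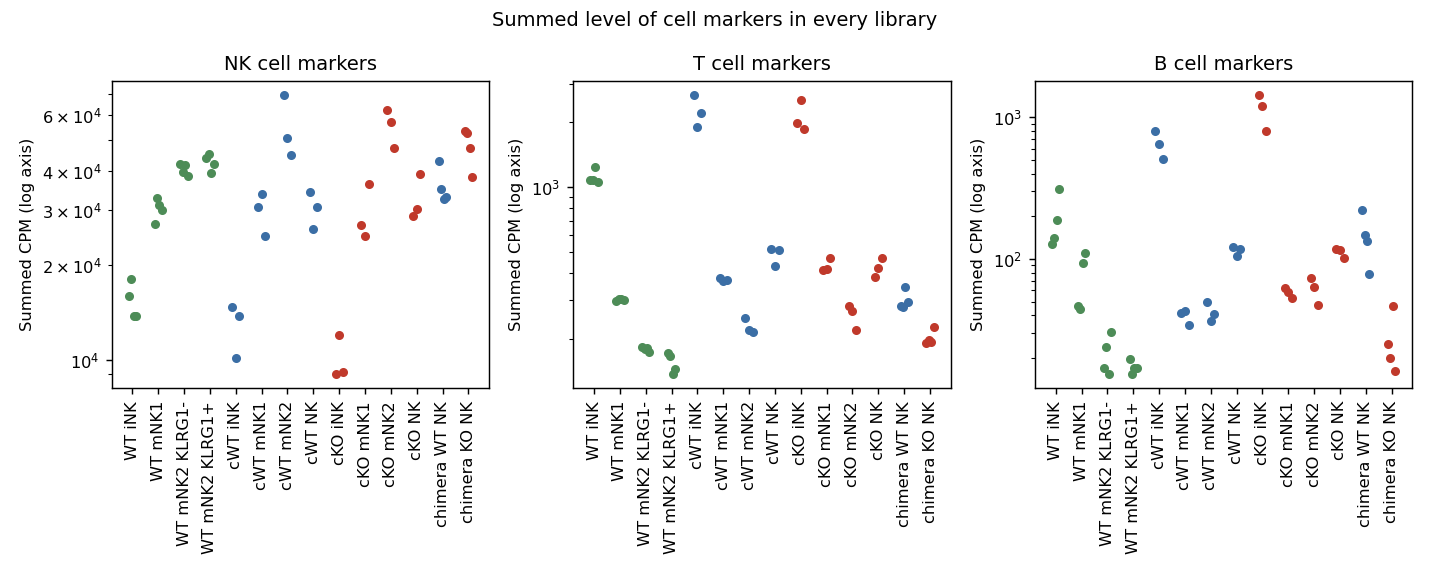
Summed CPM (log axis) of the NK, T and B cell marker lists in each of 48 libraries, by group; each point is a library, green for WT subsets, blue for controls and red for libraries labelled knockout. The iNK groups sit highest for T and B cell markers, with T cell sums of 1897 to 2670.2 CPM in cWT iNK, and lowest for NK cell markers.

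Promoters are shown for Rora and Hic1, because these genes moved with the Bach2 genotype below and Bach2 is known to bind AP-1-like sites, and for Runx3, because its upstream window holds a paired match to the motif its own protein binds. RefSeq windows of the 250 bases before a start (build GRCm38.p6, 5′ to 3′ on the strand of the gene) were matched for 7 of the 10 factors, in 13 windows. Zbtb16, Tox and Ets1 had no window and were not searched, and Tox2 had more windows than any other factor. Capitals mark a match on either strand to TGACTCA (AP-1), TGTGGT (RUNX), CCGGAA (ETS), AGGTCA (ROR) or TTATGTAA (NFIL3); no match overlaps another in these windows. The Rora window is chr9:68653536-68653785 on the plus strand, the Hic1 window chr11:75170256-75170505 on the minus strand and the Runx3 window chr4:135120395-135120644 on the plus strand. Hic1 and Runx3 each have a further window that is not shown. The window of Id2, which was also called in the chimeras, holds none of these letters and is not shown.
Rora: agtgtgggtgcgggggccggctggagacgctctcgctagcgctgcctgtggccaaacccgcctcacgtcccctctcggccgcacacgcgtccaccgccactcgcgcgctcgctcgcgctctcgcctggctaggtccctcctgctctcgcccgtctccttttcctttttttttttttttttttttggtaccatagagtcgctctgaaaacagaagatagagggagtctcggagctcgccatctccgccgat
Hic1: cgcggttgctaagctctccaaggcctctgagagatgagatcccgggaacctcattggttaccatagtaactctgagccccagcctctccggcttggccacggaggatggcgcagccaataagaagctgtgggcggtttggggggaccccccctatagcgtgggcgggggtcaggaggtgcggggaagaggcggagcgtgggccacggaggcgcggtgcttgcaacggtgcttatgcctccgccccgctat
Runx3: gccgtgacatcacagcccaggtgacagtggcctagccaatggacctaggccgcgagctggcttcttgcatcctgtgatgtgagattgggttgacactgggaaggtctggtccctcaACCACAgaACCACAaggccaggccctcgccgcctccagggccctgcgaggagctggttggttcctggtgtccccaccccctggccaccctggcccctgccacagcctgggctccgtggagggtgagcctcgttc
The AP-1 letters were in 0 of the 13 windows, against 4.46% of 32851 mouse windows of this length. The RUNX letters were in 1 window, the Runx3 window shown, which holds them 2 times on the minus strand (14% of all windows). The ETS letters were in 2 windows, Gata3 and one of Tox2 (12% of all windows), the ROR letters in 1, Nfil3 (14%), and the NFIL3 letters in 0 (0.819%). The E-box letters CANNTG were also searched and are not marked. They were in 8 windows, against 66.2% of all windows. A match is a description of letters, not of a bound site, and a missing match says nothing beyond this window.

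The first question was how the factors change along the fractions of normal NK cells. In the WT subsets, Rora, Tox and Hic1 were lower in mNK1 than in iNK, and Id2 was higher. These 4 of the 9 factors tested passed the edgeR quasi-likelihood test, where 10.5% of all genes did, and the same 4 passed in KLRG1- mNK2 (26.2% of genes) and in KLRG1+ mNK2 (30.6% of genes) against iNK. These comparisons share the iNK libraries. A gene is called here at a Benjamini-Hochberg adjusted p under 0.05 over all genes of the fit, and log2 fold changes are given ± SE. Whether the libraries of compared groups overlap is given as a description throughout, as the share of all genes without overlap was not counted.

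Id2, the inhibitor of E proteins, was at 999, 892, 806 and 867 CPM in the 4 WT iNK libraries. It was at 1201, 1157, 1149 and 1140.3 CPM in mNK1, 1348, 1259.8, 1241 and 1123 CPM in KLRG1- mNK2 and 1425, 1377, 1271 and 1332 CPM in KLRG1+ mNK2. All iNK libraries lay below all others, and the ranges of the mNK1 and KLRG1- libraries overlapped. Id2 rose from iNK to mNK1 by 0.38 ± 0.07 on the log2 scale (adjusted p = 0.000593) and was 0.60 ± 0.07 higher in KLRG1+ mNK2 than in iNK (adjusted p = 3.57e-07). Against mNK1, KLRG1+ cells were higher by 0.22 ± 0.07 (adjusted p = 0.0442). That last call was lost with no low-count filter, with a filter at a mean of 5 CPM, without WT mNK1 replicate 1, 2, 3 or 4 and without WT mNK2 KLRG1+ replicate 1, 2 or 4, with adjusted p up to 0.138.

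Tox, an HMG-box protein needed for the development of NK cells and other ILCs, was at 94.8, 107, 105 and 95.6 CPM in WT iNK. It was at 58.2, 68.5, 56.3 and 74.5 CPM in mNK1, 34.6, 49.3, 52.8 and 59.8 CPM in KLRG1- mNK2 and 45.2, 31.5, 46.2 and 44.3 CPM in KLRG1+ mNK2. The iNK libraries lay above all others, and the KLRG1+ libraries lay below every mNK1 library. Tox fell from iNK to mNK1 (log2 change -0.65 ± 0.15, adjusted p = 0.00445) and again from mNK1 to KLRG1+ mNK2 (log2 change -0.62 ± 0.15, adjusted p = 0.00608). KLRG1- and KLRG1+ mNK2 differed by -0.23 ± 0.15, which did not pass (adjusted p = 0.707).

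Its relative Tox2 was scarcely detected. The 4 WT iNK libraries and the 4 KLRG1+ libraries held 0 counts, the mNK1 libraries 0, 0, 0 and 1 and the KLRG1- libraries 0, 0, 8 and 6. A count of 3 stands for 0.261 to 0.332 CPM in these libraries, so a level under that was not detectable, and Tox2 did not enter the test.

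Rora, a nuclear receptor needed for type 2 ILCs, was at 40.99, 33.6, 35.98 and 38.6 CPM in WT iNK. It was at 9.77, 18.4, 16.1 and 10.6 CPM in mNK1, 10.6, 12.4, 5.36 and 13.5 CPM in KLRG1- mNK2 and 13.6, 8.26, 8.48 and 10.8 CPM in KLRG1+ mNK2. No iNK library overlapped any other group, while the 3 other groups overlapped each other. Rora was 2.72-fold lower in mNK1 than in iNK (log2 change -1.44 ± 0.25, adjusted p = 0.000342) and 3.61-fold lower in KLRG1+ mNK2 (log2 change -1.85 ± 0.26, adjusted p = 3.94e-06).

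Hic1, a BTB zinc-finger repressor that is known as a retinoic acid-responsive gene of intestinal immune cells, had its highest values in iNK. Its levels were 29.6, 34.00, 24.3 and 17.4 CPM in WT iNK, 3.43, 4.401, 5.95 and 3.53 CPM in mNK1, 0.684, 5.31, 10.4 and 3.65 CPM in KLRG1- mNK2 and 7.51, 13.6, 15.3 and 10.9 CPM in KLRG1+ mNK2. It fell from iNK to mNK1 (log2 change -2.60 ± 0.44, adjusted p = 0.000218) and was higher again in KLRG1+ mNK2 than in mNK1 (log2 change 1.45 ± 0.43, adjusted p = 0.0270). The KLRG1- libraries spread from 0.684 to 10.4 CPM and overlapped the KLRG1+ libraries. The rise in KLRG1+ cells was lost with no low-count filter, without WT mNK1 replicate 1, 2 or 4 and without WT mNK2 KLRG1+ replicate 2 or 3, with adjusted p up to 0.0854. The drop from iNK to KLRG1+ mNK2 (log2 change -1.15 ± 0.41, adjusted p = 0.0336) was lost with no low-count filter, without WT iNK replicate 1 or 2 and without WT mNK2 KLRG1+ replicate 1, 2 or 4.

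Zbtb16, which encodes PLZF, was at 3.005, 10.5, 11.4 and 12.5 CPM in WT iNK, 7.897, 8.597, 6.39 and 9.45 CPM in mNK1, 13.7, 10.4, 13.5 and 16.05 CPM in KLRG1- mNK2 and 15.8, 15.7, 10.9 and 15.2 CPM in KLRG1+ mNK2. A single iNK library was low, and every library of both mNK2 groups lay above every mNK1 library, but the iNK libraries overlapped them all. The difference of KLRG1+ mNK2 from mNK1, 0.83 ± 0.30 on the log2 scale, did not pass (adjusted p = 0.0819), and passed when the fit held the compared groups alone (adjusted p = 0.0130). Gata3, a zinc-finger factor required for several ILC branches, ranged over overlapping values of 209 ± 25.1 CPM (SD, n = 4) in iNK, 247 ± 15.3 in mNK1, 217 ± 18.4 in KLRG1- and 219.6 ± 21.9 in KLRG1+ mNK2. Runx3, a Runt-domain factor that drives cytotoxic programs, was at 165 ± 12.1, 179 ± 8.86, 163 ± 24.9 and 174 ± 5.48 CPM in that order. Nfil3, the basic leucine zipper factor of NK commitment, was at 30.8 ± 7.45, 33.2 ± 4.45, 34.04 ± 5.24 and 32.2 ± 1.57 CPM. Ets1, an ETS-domain activator required for normal numbers of NK cells, was at 1402 ± 187, 1425 ± 165, 1187 ± 191 and 1259 ± 90.5 CPM. None of these 5 factors was called in any of the 6 WT comparisons, and their groups overlapped in each of those with iNK. Ets1 between KLRG1- mNK2 and iNK (-0.24 ± 0.10, adjusted p = 0.0945) passed with a filter at a mean of 5 CPM (adjusted p = 0.0457) and with the replicate block (adjusted p = 0.0204).

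Between mNK1 and KLRG1- mNK2, edgeR called 0 of 9 factors where 7.29% of genes were, and between KLRG1+ and KLRG1- mNK2 0 of 9 where 1.36% of genes were. DESeq2 called 0 in both; at an unadjusted p under 0.05 there were 3 (Zbtb16, Ets1 and Tox) and 1 (Hic1). Against mNK1, KLRG1+ mNK2 had 3 called (Id2 and Hic1 higher, Tox lower) where 11.8% of genes were. Other members of the same families were also tested. Between KLRG1+ mNK2 and iNK, 15% of all genes were called higher and 15.6% lower. Of 19 relatives and binding partners tested there, 6 were higher and 3 lower, with a median log2 change of 0.05 against -0.02 over all genes. Runx1, the paralog of Runx3, was higher by 0.92 ± 0.10 (adjusted p = 1.87e-07), and Id3, the paralog of Id2, was lower, at 26.7 to 33.2 CPM in iNK and 0 to 0.991 CPM in KLRG1+ mNK2 (adjusted p = 9.15e-09). Of 26 other NK and ILC factors tested, 7 were higher and 10 lower, among them Prdm1, a repressor known from terminally differentiated lymphocytes (log2 change 2.78 ± 0.14, adjusted p = 1.68e-13), and Tcf7, an early lymphoid factor (log2 change -5.02 ± 0.14, adjusted p = 2.38e-18).

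**Figure D2:**
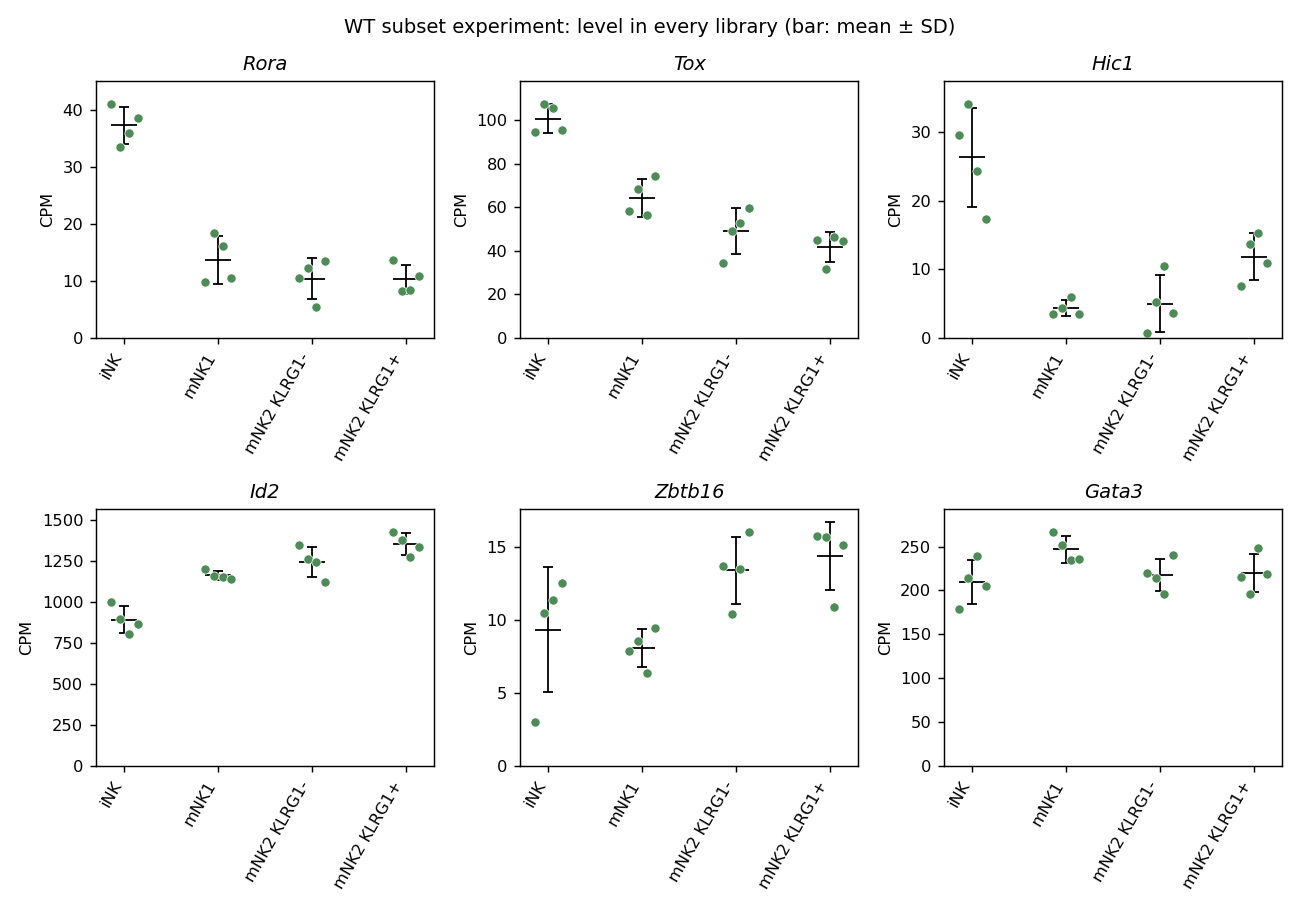
Level in CPM of 6 factors in each library of the WT subset experiment; points are libraries, the bar is the mean ± SD of 4. Rora, Tox and Hic1 are highest in iNK (Rora 37.3 ± 3.21 CPM against 10.3 ± 2.501 CPM in KLRG1+ mNK2), Id2 is lowest there, and Zbtb16 and Gata3 overlap between iNK and the other fractions.

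The conditional experiment repeated the steps from iNK to mNK1 and mNK2 in both genotypes. Rora, Tox, Ets1 and Hic1 fell and Id2 and Nfil3 rose from iNK to mNK1 in cWT and in cKO. In cWT, 6 of the 10 factors were called between mNK1 and iNK, where 18.5% of genes were, and 7 between mNK2 and iNK, where 36.7% were. In cKO the counts were 8 for mNK1 (22.7% of genes) and 7 for mNK2 (40.4% of genes). All of these comparisons rest on the iNK libraries that held T and B cell markers: all 12 T cell markers and all 10 B cell markers were called lower in mNK1 than in iNK in both genotypes. All 7 basophil and mast cell markers were called higher in mNK1 than in iNK in both genotypes, as were 7 of 8 neutrophil markers tested in cWT and 5 of 8 in cKO. Of 9 myeloid markers tested, 2 were higher and 2 lower in each. Cma1, of the basophil and mast cell list, did not follow the others of that list in mNK2. Its mean was 248 CPM in cWT mNK1 and 1268 CPM in cWT mNK2, while Gata2 went from 101 to 18.2 CPM. In WT KLRG1+ mNK2 Cma1 was at a mean of 1116 CPM, with Mcpt8 and Gata2 at 0. Which cells its counts come from was not tested.

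Id2 was at 1647, 1161 and 1761 CPM in cWT iNK, 2935, 3434 and 2629 CPM in cWT mNK1 and 5449.5, 4469.8 and 3822 CPM in cWT mNK2. The 3 groups did not overlap. Id2 was 1.97-fold higher in cWT mNK1 than in iNK (log2 change 0.98 ± 0.23, adjusted p = 0.00460) and 3.01-fold higher in cWT mNK2 (log2 change 1.59 ± 0.23, adjusted p = 2.34e-05). The first of these calls was lost without cWT iNK replicate 2, with adjusted p = 0.0548. In cKO the same steps were 1.07 ± 0.23 (adjusted p = 0.00196) and 1.80 ± 0.23 (adjusted p = 4.94e-06). From mNK1 to mNK2, Id2 was higher by 0.61 ± 0.23 in cWT, which did not pass (adjusted p = 0.0667), and by 0.74 ± 0.23 in cKO, which did (adjusted p = 0.0259) and was lost with no low-count filter, without cKO mNK1 replicate 1 or 2 and without cKO mNK2 replicate 1, 2 or 3. The cWT step passed under DESeq2 (adjusted p = 0.0190) and when the fit held the compared groups alone (adjusted p = 0.0214), so a call in cKO alone does not show a difference between the genotypes; that difference was tested with the interactions.

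Nfil3 was at 107, 108 and 103 CPM in cWT iNK, 147, 136 and 147 CPM in mNK1 and 117, 127 and 137 CPM in mNK2. The mean was highest in mNK1, where the lowest library overlapped mNK2. It rose from iNK to mNK1 by 0.44 ± 0.08 in cWT (adjusted p = 0.000355) and by 0.52 ± 0.08 in cKO (adjusted p = 3.18e-05). mNK2 was above iNK by 0.26 ± 0.08 in cWT (adjusted p = 0.0146, lost without cWT mNK2 replicate 3) and by 0.27 ± 0.08 in cKO (adjusted p = 0.00907). In cKO, Nfil3 then fell from mNK1 to mNK2 (log2 change -0.25 ± 0.08, adjusted p = 0.0310), a call lost under DESeq2, with no low-count filter, without cKO mNK1 replicate 1 or 2 and without cKO mNK2 replicate 1 or 2. In the WT subsets the Nfil3 step from iNK to mNK1 was 0.11 ± 0.17 and did not pass. The Nfil3 level was 103 to 183 CPM in the conditional libraries and 20.3 to 41.0 CPM in the other experiments, and experiment and library preparation cannot be told apart there.

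Tox fell at each step, from 55.1, 49.2 and 53.6 CPM in cWT iNK to 38.2, 37.6 and 39.8 CPM in mNK1 and 26.96, 30.04 and 29.9 CPM in mNK2, and the 3 groups did not overlap. Its log2 changes in cWT were -0.45 ± 0.10 from iNK to mNK1 (adjusted p = 0.00308) and -0.41 ± 0.11 from mNK1 to mNK2 (adjusted p = 0.00673). In cKO they were -0.37 ± 0.10 (adjusted p = 0.0116) and -0.54 ± 0.11 (adjusted p = 0.000504). Each of these calls for Tox was kept under every alternative and without each library.

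Ets1 was at 741, 755 and 811 CPM in cWT iNK and at 577, 628 and 699.8 CPM in mNK1. Its 3 iNK libraries lay above the mNK1 libraries. The log2 change to mNK1 was -0.28 ± 0.08 in cWT (adjusted p = 0.0199), lost when the fit held the compared groups alone, without cWT mNK1 replicate 1 or 2 and without cWT iNK replicate 3. In cKO it was -0.28 ± 0.08 (adjusted p = 0.0139), lost when the fit held the compared groups alone and without cKO iNK replicate 1. From iNK to mNK2 it changed by -0.30 ± 0.08 in cWT (adjusted p = 0.00661, lost without cWT mNK2 replicate 1 and without cWT iNK replicate 3) and by -0.40 ± 0.08 in cKO (adjusted p = 0.000406). In the WT subsets the step from iNK to mNK1 was 0.02 ± 0.10, with overlapping libraries.

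Runx3 rose by small amounts. It was at 94.6, 94.5 and 99.4 CPM in cWT iNK and 123, 125 and 125 CPM in cWT mNK2, without overlap. That step was 0.37 ± 0.07 in cWT (adjusted p = 0.000201) and 0.41 ± 0.07 in cKO (adjusted p = 5.69e-05). From iNK to mNK1 the log2 change was 0.19 ± 0.07 in cWT, which did not pass (adjusted p = 0.0613), and 0.24 ± 0.07 in cKO, which did (adjusted p = 0.0161) and was lost when the fit held the compared groups alone, without cKO iNK replicate 2 and without cKO mNK1 replicate 3. From mNK1 to mNK2 the changes of 0.18 ± 0.07 in cWT and 0.17 ± 0.07 in cKO did not pass in edgeR with its usual scaling, and passed under DESeq2 and with RLE factors.

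Gata3 changed by small amounts. It was at 87.2, 90.9 and 94.6 CPM in cWT iNK, 96.8, 90.98 and 104 CPM in mNK1 and 102, 104 and 111 CPM in mNK2, and in cKO at 105, 100.2 and 116 CPM in iNK, 94.05, 93.5 and 88.99 CPM in mNK1 and 101, 112 and 119 CPM in mNK2. The cKO mNK1 libraries lay below both other cKO groups, whereas in cWT the mNK1 libraries overlapped both. Gata3 rose from iNK to mNK2 in cWT (0.22 ± 0.08, adjusted p = 0.0337), a call lost with no low-count filter, with a filter at a mean of 5 CPM, without cWT iNK replicate 1 or 2 and without cWT mNK2 replicate 2 or 3. In cKO it fell from iNK to mNK1 (-0.22 ± 0.08, adjusted p = 0.0458, lost with no low-count filter, when the fit held the compared groups alone, without cKO mNK1 replicate 1, 2 or 3 and without cKO iNK replicate 3) and rose from mNK1 to mNK2 (0.26 ± 0.08, adjusted p = 0.0167, lost when the fit held the compared groups alone, without cKO mNK2 replicate 2 or 3 and without cKO mNK1 replicate 3).

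Rora was at 34.5, 40.2 and 38.3 CPM in cWT iNK, 16.8, 16.6 and 20.8 CPM in mNK1 and 14.05, 16.6 and 16.5 CPM in mNK2. In cKO it was at 56.5, 51.4 and 69.6 CPM in iNK, 28.5, 33.6 and 35.1 CPM in mNK1 and 15.3, 21.2 and 26.8 CPM in mNK2. The iNK libraries were the highest in both genotypes. Rora fell from iNK to mNK1 by 2.08-fold in cWT (log2 change -1.06 ± 0.18, adjusted p = 0.000124) and by 1.83-fold in cKO (log2 change -0.87 ± 0.18, adjusted p = 0.000658). A further drop from mNK1 to mNK2 was called in cKO (-0.62 ± 0.18, adjusted p = 0.0152, lost without cKO mNK2 replicate 1 and without cKO mNK1 replicate 3) and not in cWT (-0.20 ± 0.18, adjusted p = 0.509).

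Hic1 was at 4.03, 3.56 and 3.15 CPM in cWT iNK, 1.74, 2.104 and 2.04 CPM in mNK1 and 4.25, 3.61 and 3.87 CPM in mNK2. It was thus lowest in mNK1, where no library overlapped the other groups. The log2 change was -0.86 ± 0.25 from iNK to mNK1 (adjusted p = 0.0171, lost when the fit held the compared groups alone, without cWT iNK replicate 1 and without cWT mNK1 replicate 1) and 0.99 ± 0.25 from mNK1 to mNK2 (adjusted p = 0.00630, kept under every alternative that tested it). In cKO these steps were -1.70 ± 0.24 (adjusted p = 8.68e-06) and 1.06 ± 0.25 (adjusted p = 0.00249), and mNK2 was lower than iNK (log2 change -0.64 ± 0.23, adjusted p = 0.0293), which was lost with no low-count filter, when the fit held the compared groups alone, without cKO iNK replicate 2 or 3 and without cKO mNK2 replicate 2 or 3. Hic1 was thus lower in mNK1 than in iNK in WT, cWT and cKO, and higher in mNK2 than in mNK1 in cWT and cKO. In WT, KLRG1+ mNK2 was higher than mNK1, a call lost in several fits. WT KLRG1- mNK2 was not called against mNK1 (means of 5.02 and 4.33 CPM).

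Between mNK2 and mNK1, 2 of 10 factors were called in cWT (Hic1 higher, Tox lower) where 20.2% of genes were, and 7 in cKO where 21.3% of genes were. Zbtb16 was among the cKO calls: it was at 4.95, 8.703 and 6.85 CPM in cKO mNK1 and 10.2, 10.9 and 12.03 CPM in cKO mNK2, without overlap. The log2 change was 0.69 ± 0.25 (adjusted p = 0.0466), lost with a filter at a mean of 5 CPM, without cKO mNK1 replicate 1 or 3 and without cKO mNK2 replicate 1, 2 or 3. In cWT the same step was 0.44 ± 0.25 and did not pass (adjusted p = 0.245), with libraries at 4.63, 5.82 and 5.79 CPM against 7.29, 7.697 and 7.07 CPM. Tox2 was tested here but stayed between 0 and 1.25 CPM in all 24 libraries and was called in none of these comparisons. Leaving out 1 library moved the cKO count of 7 to between 3 and 5.

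**Figure D3:**
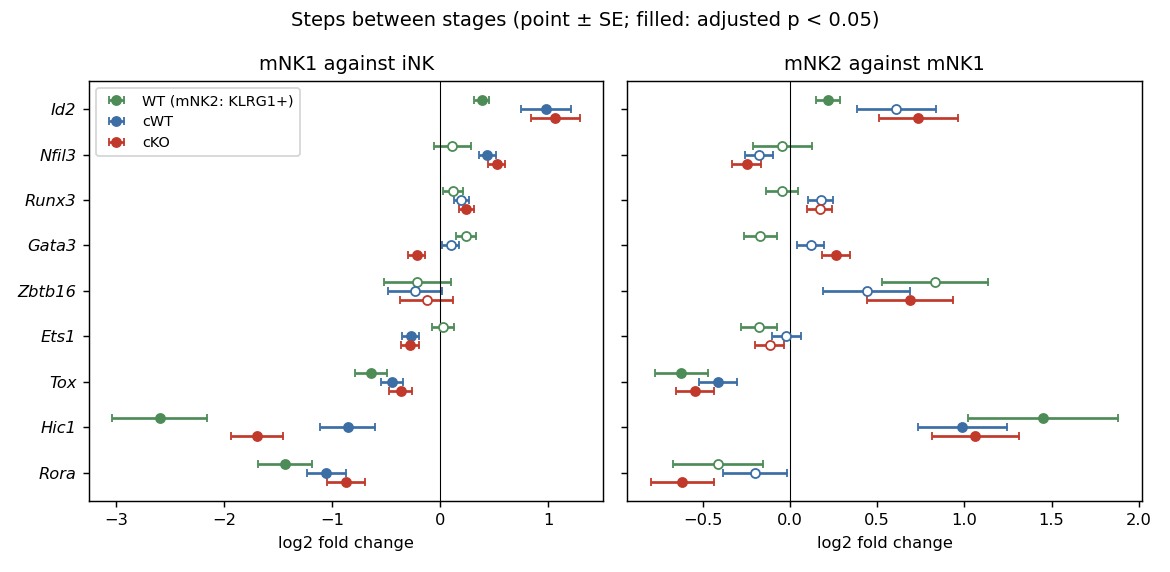
Log2 fold change ± SE of 9 factors (rows) from iNK to mNK1 (left) and from mNK1 to mNK2 (right, KLRG1+ for WT), in WT (green), cWT (blue) and cKO (red); filled points passed an adjusted p of 0.05. Rora, Hic1 and Tox lie left of 0 in all 3 at the first step, and Hic1 and Id2 lie right of 0 in all 3 at the second.

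The effect of Bach2 deletion was first measured in the chimeras, where WT and KO cells formed from marrow given together. Rora, Zbtb16 and Id2 were higher in Bach2-KO NK cells and Tox was lower, which are 4 of 9 factors tested, where 5% of genes were called. Rora changed most, then Zbtb16, and Id2 and Tox changed by less.

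Rora was at 12.7, 10.5, 13.8 and 11.3 CPM in the WT chimera libraries and at 25.3, 30.2, 27.7 and 21.6 CPM in the KO libraries. The lowest KO library lay above the highest WT library. Rora was 2.16-fold higher (log2 change 1.11 ± 0.16, adjusted p = 6.34e-05), and the call held without each of the 8 libraries, with log2 changes of 1.04 to 1.20. Zbtb16 was at 6.84, 10.3, 7.92 and 8.799 CPM in WT and 20.7, 14.2, 13.7 and 12.9 CPM in KO, without overlap. It was 1.82-fold higher (0.86 ± 0.20, adjusted p = 0.0109). KO replicate 1 was the highest, and without it the log2 change was 0.68 and did not pass (adjusted p = 0.0900).

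Id2 was at 1450.0, 1152, 1167 and 1225 CPM in WT and 1632, 1691, 1651 and 1479 CPM in KO. Every KO library lay above every WT library, by a small margin at the edge. Its log2 change of 0.37 ± 0.09 (adjusted p = 0.0113) was lost without chimera WT NK replicate 2 or 3 and without chimera KO NK replicate 2, with adjusted p up to 0.0693. Tox was at 53.8, 58.7, 64.5 and 53.98 CPM in WT and 41.5, 47.2, 49.6 and 39.6 CPM in KO, again without overlap. Its log2 change of -0.38 ± 0.10 (adjusted p = 0.0350) was lost without chimera KO NK replicate 1, 2 or 4 and without chimera WT NK replicate 2 or 3, with adjusted p up to 0.160.

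The other factors did not pass. Hic1 was at 10.1, 8.26, 8.59 and 5.07 CPM in WT and 10.4, 11.7, 12.7 and 9.92 CPM in KO, a log2 difference of 0.48 ± 0.22 (adjusted p = 0.287) with an interval of 0.03 to 0.94. The differences of Gata3 (-0.18 ± 0.08), Runx3 (-0.16 ± 0.07), Ets1 (-0.09 ± 0.08) and Nfil3 (-0.03 ± 0.14) were smaller than 0.20. Runx3 was at 157, 164, 159 and 170.2 CPM in WT and 145, 154, 142 and 141 CPM in KO (adjusted p = 0.226), without overlap. Tox2 had too few counts for the test, with 1, 1, 2 and 2 counts in the WT libraries and 4, 21, 8 and 4 in the KO libraries. For Runx3 and Tox2 the lack of overlap is a description only and not a call.

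Where 2.64% of all genes were called higher and 2.36% lower, 1 of 20 relatives and partners tested was higher and 1 lower. These were Gata2, a paralog of Gata3 known from mast cells and basophils (log2 change 2.94 ± 0.31, adjusted p = 1.91e-05, from 2.14 to 3.82 CPM in WT to 9.74 to 29.5 CPM in KO), and Id3 (-1.23 ± 0.33, adjusted p = 0.0269). Among 26 other NK and ILC factors, 2 were higher, Irf8 (0.73 ± 0.09, adjusted p = 1.18e-05) and Prdm1 (0.61 ± 0.10, adjusted p = 0.000380), and 4 lower, led by Tcf7 (-1.52 ± 0.11, adjusted p = 1.18e-08). The KO libraries also differed in markers of other cells. The B cell markers were lower in 8 of 8 tested (78.3 to 220.1 CPM summed in WT, 16.2 to 46.3 CPM in KO), the T cell markers in 4 of 10 (279 to 348 and 191 to 226 CPM), and the neutrophil markers were higher in 3 of 8 (4.44 to 60.96 and 136 to 602 CPM). Basophil and mast cell markers, of which Gata2 is one, were higher in 4 of 7, and Mcpt8 was at 0.159 to 2.86 CPM in WT and 5.43 to 22.8 CPM in KO. The 7 include Cma1, which did not follow the others along the NK stages. It was at 565 to 679 CPM in WT and 898 to 1063 CPM in KO. Of 6 myeloid markers tested, 2 were higher and 1 lower (493 to 546 and 481 to 670.2 CPM summed over 10), with Lyz2 at 9.27 to 18.7 CPM in WT and 43.5 to 167 CPM in KO. Of 6 ILC1 markers, Itga1 was higher (0.77 ± 0.22, adjusted p = 0.0469), Il21r (-1.01 ± 0.15, adjusted p = 0.000133) and Tnfsf10 (-0.77 ± 0.22, adjusted p = 0.0479) were lower, and 3 were not called. Early NK stage markers were lower in 3 of 6 and late stage markers higher in 4 of 6. The part of these in the results for the 10 factors was not tested.

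In the conditional experiment, few genes and few of the factors passed between cKO and cWT. Zbtb16 and Hic1 were higher in the NK fraction labelled cKO (2 of 10, where 0.571% of genes were called), Hic1 in iNK (1 of 10, where 0.294% were), and Rora in mNK1 (1 of 10, where 0.571% were). In mNK2, edgeR called 0 of 10 where 0.261% of genes were called, with 3 at an unadjusted p under 0.05 (Zbtb16, Rora and Nfil3), and DESeq2 called 0. No factor was called lower.

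Zbtb16 was at 6.402, 5.15 and 5.97 CPM in cWT NK and 16.3, 11.9 and 8.89 CPM in cKO NK. All 3 cKO libraries lay above the cWT libraries, and they spread widely. Zbtb16 was 2.12-fold higher (1.08 ± 0.24, adjusted p = 0.0364), a call lost when the fit held the compared groups alone, without cWT NK replicate 1, 2 or 3 and without cKO NK replicate 1 or 2, with adjusted p up to 0.316. In the sorted fractions, Zbtb16 differed by 0.22 ± 0.24 in iNK, 0.33 ± 0.25 in mNK1 and 0.58 ± 0.25 in mNK2, none of which passed. The mNK2 libraries did not overlap, at 7.29, 7.697 and 7.07 CPM in cWT and 10.2, 10.9 and 12.03 CPM in cKO.

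Hic1 was at 3.26, 3.58 and 2.47 CPM in cWT NK and 5.904, 8.15 and 5.14 CPM in cKO NK, and at 4.03, 3.56 and 3.15 CPM in cWT iNK and 6.602, 7.02 and 9.97 CPM in cKO iNK. In both fractions all cKO libraries lay above all cWT libraries. It was 2.06-fold higher in NK (1.04 ± 0.23, adjusted p = 0.0364) and 2.21-fold higher in iNK (1.14 ± 0.23, adjusted p = 0.0258). The NK call was lost with no low-count filter, when the fit held the compared groups alone, without cWT NK replicate 1, 2 or 3 and without cKO NK replicate 1 or 2, with adjusted p up to 0.492. The iNK call was lost when the fit held the compared groups alone, without cWT iNK replicate 1, 2 or 3 and without cKO iNK replicate 2 or 3, with adjusted p up to 0.229. The differences in mNK1 (0.30 ± 0.26), where the libraries did not overlap, and mNK2 (0.37 ± 0.24) did not pass.

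Rora was at 16.8, 16.6 and 20.8 CPM in cWT mNK1 and 28.5, 33.6 and 35.1 CPM in cKO mNK1, without overlap. It was 1.79-fold higher (0.84 ± 0.18, adjusted p = 0.0281). That call was lost when the fit held the compared groups alone, without cWT mNK1 replicate 1, 2 or 3 and without cKO mNK1 replicate 1, 2 or 3, so without any of the 6 libraries, with adjusted p up to 0.176 and log2 changes of 0.78 to 0.95. Rora was also higher by value in iNK (0.65 ± 0.17, adjusted p = 0.148), where the libraries did not overlap, in NK (0.51 ± 0.18, adjusted p = 0.304) and in mNK2 (0.42 ± 0.18, adjusted p = 0.912), where they did; none of the 3 passed. With the replicate number as a block, iNK passed (adjusted p = 0.0105) and so did NK (adjusted p = 0.0466).

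Tox was lower by value in all 4 fractions, at -0.26 ± 0.11 in NK, -0.11 ± 0.10 in iNK, -0.03 ± 0.11 in mNK1 and -0.16 ± 0.11 in mNK2, and passed in none. Id2 differed by 0.24 ± 0.23 in NK (interval -0.24 to 0.71) and 0.21 ± 0.23 in mNK2 (interval -0.26 to 0.68), and by 0.09 ± 0.23 in mNK1 and less than 0.01 in iNK. Nfil3 differed by 0.13 ± 0.08, 0.19 ± 0.08, 0.27 ± 0.08 and 0.20 ± 0.08 and passed in none. Its libraries did not overlap in iNK, mNK1 or mNK2, and in mNK1 it was at 147, 136 and 147 CPM in cWT and 171, 183 and 166 CPM in cKO (adjusted p = 0.201). Lack of overlap between so few libraries is a description only, as its share over all genes was not counted. Gata3 in iNK was at 87.2, 90.9 and 94.6 CPM in cWT and 105, 100.2 and 116 CPM in cKO, without overlap (0.24 ± 0.08, adjusted p = 0.320). Ets1 and Runx3 differed by less than 0.10 in every fraction, although the Runx3 libraries did not overlap in NK, at 127, 122 and 122 CPM in cWT and 119, 121 and 115 CPM in cKO. Tox2 was tested and had log2 differences of 1.37 ± 0.75, 0.40 ± 0.71, 1.12 ± 0.83 and 0.73 ± 0.68, each with an SE above 0.6.

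Among 26 other NK and ILC factors tested between cKO and cWT, Tcf7 was lower in NK (-0.77 ± 0.10), mNK1 (-0.49 ± 0.10) and mNK2 (-1.13 ± 0.10), and Irf8 was higher in NK (0.67 ± 0.15) and mNK1 (0.66 ± 0.15). Of 12 T cell markers, 0 were called in the NK, iNK and mNK1 comparisons and 1 was higher in mNK2, and of 10 B cell markers 1 was higher in iNK and 1 in mNK1. Early stage markers were lower in 3 of 6 in NK and in 2 of 6 in mNK1 and mNK2. Of the late stage markers, Klrg1 was at 383 to 512 CPM in cWT NK and 709 to 765 CPM in cKO NK. It was at 154 to 222 and 325 to 344 CPM in mNK1, and at 799 to 1087 and 1255 to 1378 CPM in mNK2. In iNK its libraries overlapped. Not all late markers were higher, as S1pr5 in mNK1 averaged 368 CPM in cWT and 349 CPM in cKO. Of 6 ILC1 markers, 2 were higher in cKO mNK1, Itga1, the integrin that marks tissue-resident cells (1.12 ± 0.21, adjusted p = 0.00985), and the chemokine receptor Cxcr6 (0.84 ± 0.16, adjusted p = 0.0128). The other 4 did not pass, with Il21r at means of 32.5 CPM in cWT and 32.6 CPM in cKO and Tnfsf10 at 5.62 and 4.50 CPM. Of the neutrophil, myeloid, basophil and mast cell markers edgeR called 1 between the genotypes, Cma1, which was lower in cKO iNK (-0.86 ± 0.17, adjusted p = 0.0298). Cma1 encodes a mast cell chymase, but here it was highest in mNK2, unlike the rest of its list. The neutrophil sums of mNK1 spread widely. The part of all these markers in the results for the factors was not tested.

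Whether the cKO difference itself changed between fractions was tested by interaction terms. In edgeR, 0 of 10 factors passed for mNK1 against iNK, where 0% of genes did, for mNK2 against mNK1 (0.00816% of genes) and for mNK2 against iNK (0.0489% of genes), and DESeq2 also called 0 in each. At an unadjusted p under 0.05 there were 2 (Gata3 and Hic1), 0 and 1 (Hic1). The interaction for Hic1 in mNK1 against iNK was -0.84 ± 0.35, with an interval of -1.56 to -0.12, that for Id2 in mNK2 against mNK1 was 0.13 ± 0.32, with an interval of -0.54 to 0.80, and that for Rora in mNK2 against mNK1 was -0.42 ± 0.26, with an interval of -0.95 to 0.12. Calls of Hic1 in iNK and of Rora in mNK1 are therefore not shown to belong to those fractions.

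**Figure D4:**
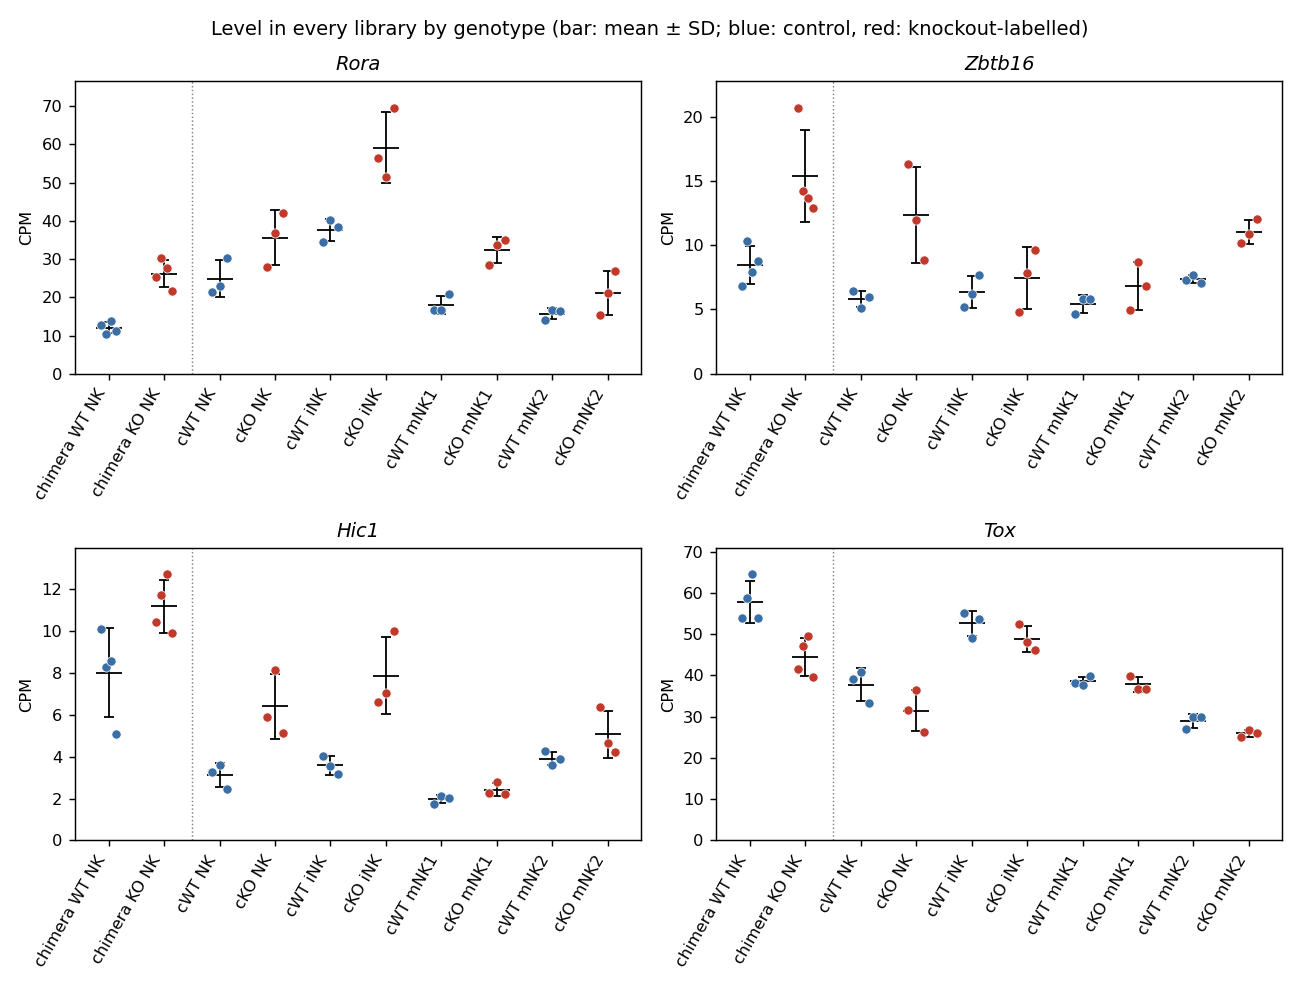
Level in CPM of Rora, Zbtb16, Hic1 and Tox in each library of the chimera and conditional experiments; points are libraries, blue for controls and red for libraries labelled knockout, and the bar is the mean ± SD (n = 4 in chimeras, n = 3 otherwise). Rora lies higher in every knockout group by its mean, as in the chimeras (26.2 ± 3.64 against 12.1 ± 1.46 CPM) and in mNK1 (32.4 ± 3.44 against 18.1 ± 2.34 CPM); the dotted line parts the experiments, whose levels are scaled apart.

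The chimera and conditional comparisons share no libraries, so their values can be set side by side. The conditional comparisons come from the same fit and all carry the difference in Ncr1. The labels do not say whether their fractions come from the same animals, so they are not separate tests. For Rora the log2 differences were 1.11 ± 0.16 in the chimeras and 0.51 ± 0.18, 0.65 ± 0.17, 0.84 ± 0.18 and 0.42 ± 0.18 in NK, iNK, mNK1 and mNK2. For Zbtb16 they were 0.86 ± 0.20, 1.08 ± 0.24, 0.22 ± 0.24, 0.33 ± 0.25 and 0.58 ± 0.25, and for Hic1 0.48 ± 0.22, 1.04 ± 0.23, 1.14 ± 0.23, 0.30 ± 0.26 and 0.37 ± 0.24. All 3 factors had positive differences in all 5 comparisons, of which Rora was called in 2, Zbtb16 in 2 and Hic1 in 2. Each conditional call of these 3 factors was lost when the fit held the compared groups alone. The share of all genes with the same sign in all 5 was not counted. Tox had negative differences in all 5 and was called in 1. Runx3 had differences of -0.16 to -0.03 and was called in none, while Id2, Nfil3, Gata3 and Ets1 had differences of both signs. Tox2 was not tested in the chimeras.

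**Figure D5:**
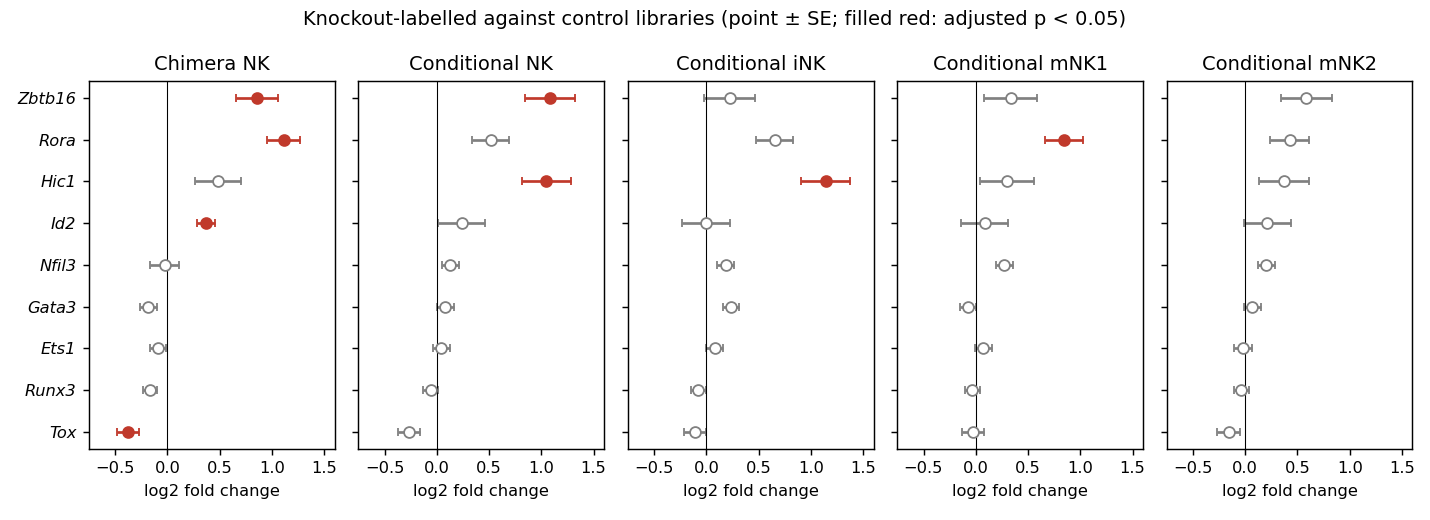
Log2 fold change ± SE of 9 factors (rows) between libraries labelled knockout and their controls, in the chimeras and in the 4 conditional fractions; filled red points passed an adjusted p of 0.05. Rora, Zbtb16 and Hic1 lie right of 0 in all 5 panels and Tox left of 0, with Rora called in the chimeras (1.11 ± 0.16) and in mNK1 (0.84 ± 0.18).

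The genes whose pattern came closest to that of each factor were found by the Pearson correlation of mean log2(CPM + 1) over the 8 conditional groups, among 8823 genes that averaged 5 CPM or more. With 8 points that share libraries this is a description only. Rora was closest to Itga1 (r = 0.98), Lins (0.98) and Cd38 (0.98). Tox was closest to Dock9, Cmah and Pusl1 (r of 0.99 or more), and Id2 to Impa1, Mapre1 and the NK receptor gene Klrc2 (r of 0.99 or more). Zbtb16 had the weakest likeness, with Plekha1, Sec24d and Dhx34 (r = 0.95). For Gata3, genes among the closest were Rela, Tmem129 and Slc35a4, for Nfil3 Padi4 and Fbxo9, for Ets1 Enoph1, Gclm and Cyth3, and for Runx3 Bcdin3d, Tm6sf2 and Slc25a24, with r from 0.97 to 0.99. Hic1 and Tox2 were below the level required.

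In order of mean level over the 14 groups, Rora was highest in cKO iNK (59.2 ± 9.395 CPM, n = 3), followed by cWT iNK (37.6 ± 2.900) and WT iNK (37.3 ± 3.21, n = 4), and lowest in the WT KLRG1+ and KLRG1- mNK2 groups (10.3 ± 2.501 and 10.4 ± 3.59), which did not differ beyond their spread. Tox was highest in WT iNK (101 ± 6.51) and lowest in cKO mNK2 (25.96 ± 0.875). Id2 was lowest in WT iNK (891 ± 80.3) and highest in cKO mNK2 (5300.1 ± 192). Zbtb16 was highest in the chimera KO group (15.4 ± 3.59) and WT KLRG1+ mNK2 (14.4 ± 2.33), which overlapped, and lowest in cWT mNK1 (5.41 ± 0.676). Hic1 was highest in WT iNK (26.3 ± 7.18) and lowest in cWT mNK1 (1.96 ± 0.197). Orders that cross experiments also hold the difference between experiments, from which the groups cannot be told apart.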

How the data were processed

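RNA was sequenced from 48 libraries in 14 groups. Per the labels' protocols, RNA was purified with a Qiagen kit and libraries were made with Clontech SMARTer chemistry. Per the submitters' processing notes, FastQC and the aligner STAR (2.5.0) were used, with mouse build mm9. The authors deposited whole-number read counts per gene symbol. The counting program, annotation and strand setting are not given in the sources used here, so reads antisense to Rora, Gata3, Ets1, Tox and Runx3, which overlap annotated antisense genes, cannot be told apart from their own. RefSeq promoters (GRCm38.p6) are given with their own build and no coordinate was converted.

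The 3 experiments share no group and were fitted apart with edgeR 4.0.16 (quasi-likelihood F test, robust) on R 4.3.3. filterByExpr kept 12258, 11051 and 10614 genes (conditional, WT subset, chimera), TMM factors scaled the libraries, and residual degrees of freedom were 16, 12 and 6. Adjusted p-values (Benjamini-Hochberg) are over all genes of a comparison, with a threshold of 0.05. CPM uses the filtered library total times the TMM factor. A count of 3 served as the floor, for counting error only. Intervals of log2 differences are at 95% and come from the SE. Of 60 library pairs within a group, 0 were identical. The tests were checked on simulated counts. Rn45s, a ribosomal RNA precursor, took 0.0890% to 0.360% of counts in the conditional libraries and 18.6% to 29.1% in the others. All 10 factors were named in every comparison. Of the other lists, up to 2 higher and 2 lower called genes with the smallest p could be named, and the marker genes named were chosen after their values were seen. The factors and lists were chosen with earlier results of these data known. Alternatives were DESeq2 1.42.0, RLE factors, a replicate block, no filter, a mean of 5 CPM as filter, a fit of the compared groups alone, Rn45s left out, and each library left out. Some results on single genes are not reported here.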

Additional observations from a re-analysis of the deposited data

Results flagged for a closer look

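In 4 of 62 sets of 4 libraries, each 1 of the 10 factors or Bach2 in a group, the most distant library stood apart by Dixon's test at the 95% level; chance flags about 1 in 20. Zbtb16 was at 20.7 CPM (201 counts) in chimera KO replicate 1, against 12.9 to 14.2 CPM in the other KO libraries, and this is the library without which the Zbtb16 call was lost. Ets1 was at 1123 CPM in chimera KO replicate 4, against 1239 to 1262 CPM. Zbtb16 was at 10.9 CPM in WT KLRG1+ mNK2 replicate 3, against 15.2 to 15.8 CPM. Tox was at 31.5 CPM in WT KLRG1+ mNK2 replicate 2, against 44.3 to 46.2 CPM. Groups of 3 libraries were not examined in this way.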

How the results depend on the processing

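Of 60 calls of a factor in a comparison, 35 held in every fit that tested them (the 5 CPM filter leaves Hic1 and Tox2 out of the conditional experiment), and no value that was called changed direction. Of 2773 recomputed values, 2640 kept their side of the threshold, 114 lost the call and 19 gained it; among those that kept it, 74 of 1947 uncalled values changed sign. RLE factors and leaving out Rn45s shifted the median gene by at most 0.0221 and 0.00586 (log2). The number of the 10 factors called moved as follows, and the cause was not tested. For cWT mNK2 against mNK1 it was 2, 4 under DESeq2 and 1 with the 5 CPM filter. For cKO against cWT it was 2 in NK (1 with no filter, 1 with the 5 CPM filter, which leaves Hic1 out), 1 in iNK (0 with that filter, for the same reason) and 1 in mNK1; a fit of the compared groups alone, with fewer libraries, gave 0 in each. For cKO mNK1 against iNK it was 8, and 5 in a fit of the compared groups alone. For WT KLRG1+ mNK2 against mNK1 it was 3, and 1 with no filter. Leaving out 1 library gave 2 to 4 in the chimeras (4 with all), 0 to 2 in cKO against cWT NK, 0 to 1 in iNK, 0 in mNK1, 3 to 5 in cKO mNK2 against mNK1 (7 with all), 1 to 2 in WT KLRG1+ mNK2 against mNK1, and 0 to 1 in KLRG1- against mNK1 and KLRG1+ against KLRG1-.

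The residuals of libraries with the same replicate number did not correlate above 0.1 for every pair in any comparison, so the numbers are not taken as pairs, although in the chimeras each of the 8 libraries had its highest correlation with its own number, as in KLRG1- mNK2 against mNK1 and KLRG1+ against KLRG1- mNK2. With the replicate block, cKO against cWT iNK had 2 calls (Rora joined Hic1), and WT KLRG1- mNK2 against mNK1 had 1 (Ets1, log2 change -0.27, adjusted p = 0.0325) in place of 0.

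Over all genes, DESeq2 called 128, 82, 127 and 64 genes between cKO and cWT in NK, iNK, mNK1 and mNK2, against 70, 36, 70 and 32 in edgeR, and a fit of the compared groups alone called 11 in NK, 5 in iNK and 12 in mNK1. The differences between fractions had 4, 21 and 28 genes in DESeq2 and 4, 31 and 51 with the replicate block (mNK1 against iNK, mNK2 against mNK1, mNK2 against iNK), against 0, 1 and 6, and the last of these had 14 with the compared groups alone. KLRG1+ against KLRG1- mNK2 had 254 in DESeq2 against 150, and the block gave 67 in iNK and 62 in mNK2 between cKO and cWT. Leaving out 1 library lowered the genes called between cKO and cWT to as few as 36 in NK, 5 in iNK, 26 in mNK1 and 18 in mNK2, and took those of the difference of mNK2 against mNK1 to between 0 and 17. Factors at a few CPM (Hic1, Tox2, Zbtb16) rest on few counts, which limits the differences that could be detected.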
